A study of Bos taurus with 24 samples.

Results

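The enzymes that write and erase methyl and acetyl groups on histones, together with the Polycomb proteins, were followed through single early bovine blastocysts. Members were chosen by symbol. They were the genes whose symbol starts with KDM, MLL, KMT, SETD, HDAC, SIRT, PRMT, KAT, EHMT or SUV followed by a number, plus EZH1, EZH2, EED, SUZ12, RING1, RNF2, BMI1, JARID2, BCOR, DOT1L, EP300 and CREBBP. The rule found 75 genes among the 24621 in the count table, and no Y-linked gene was among them. By role they comprised 5 members of Polycomb repressive complex 2 (PRC2), 4 of Polycomb repressive complex 1 (PRC1), 4 class I and 7 class II or IV histone deacetylases, 7 sirtuins, 7 acetyltransferases, 8 H3K4, 3 H3K9 and 10 other methyltransferases, 6 arginine methyltransferases and 14 demethylases.

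Histones are modified after they are assembled into chromatin, and the modifications affect how accessible a gene is. Acetyltransferases add acetyl groups, which go with open chromatin, and deacetylases and sirtuins remove them. PRC2 methylates lysine 27 of histone H3 through EZH1 or EZH2, which need EED and SUZ12 to act, while PRC1 ubiquitinates histone H2A through RING1 or RNF2. Both keep developmental genes silent. In the early embryo these marks are reset after fertilization and then laid down again as the first lineages, trophectoderm and inner cell mass, are set aside.

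Each of the 24 libraries was 1 Holstein embryo graded as an early blastocyst of the best quality, and all embryos shared 1 sire. The 8 in vivo derived embryos (5 male, 3 female, named A) were flushed from the uterus of 3 superovulated cows. The 8 serum embryos (3 male, 5 female, named B) came from oocytes matured in TCM-199 with 20% fetal bovine serum (FBS) and cultured in synthetic oviduct fluid (SOF) with 5% FBS. The 8 serum-free embryos (5 male, 3 female, named C) came from oocytes matured with epidermal growth factor in place of serum and cultured in SOF with bovine serum albumin, insulin, transferrin and selenium. Both in vitro groups were fertilized and cultured outside the cow, with ovaries from a slaughterhouse. In vitro blastocysts were harvested on the same day after insemination as the in vivo embryos were flushed, or on the day before. Donor cow, oocyte maturation, culture and embryo age thus cannot be told apart in the comparisons with in vivo embryos. The serum and serum-free embryos differed in both the maturation and the culture medium. The labels do not say which cow or which in vitro experiment gave each embryo, and p-values therefore measure the spread between embryos only.

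Exon counts per embryo ran from 3253051 to 9000447, of which the 75 members took between 0.336% and 0.531%. The sex labels were matched by the Y-linked DDX3Y, with 101 to 902 counts in male and 0 to 2 in female embryos. Markers of the embryo's own lineages differed between groups. The summed level of 9 trophectoderm genes was 7529 to 14748 counts per 1000000, scaled by TMM (CPM) in vivo, 327 to 5125 CPM in serum and 4997 to 28849 CPM in serum-free embryos. That of 5 primitive endoderm genes was 343 to 595 CPM in vivo, 27.1 to 231 CPM in serum and 128 to 402 CPM in serum-free embryos, with SOX17 at 0 in every in vivo and serum embryo. The 5 inner cell mass genes summed to 434 to 586, 518 to 868 and 287 to 585 CPM in the same order, the 7 oocyte genes found in the table to 1.35 to 14.8, 1.43 to 152 and 4.68 to 101 CPM, and the 7 cumulus and granulosa genes to 13.4 to 41.7, 4.33 to 58.6 and 7.60 to 29.8 CPM, with PTX3 at 0 throughout. The 4 genes of oviduct, uterus and blood summed to 0.962 to 6.70 CPM in vivo, 6.76 to 23.7 CPM in serum and 0.984 to 8.68 CPM in serum-free embryos, so that every serum embryo was above every in vivo embryo at low levels. Because whole embryos were sequenced, fewer cells of a type and less RNA per cell cannot be told apart, and the part of these markers in the results on serum embryos was not tested.

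Of the 75 members, 54 reached at least 15 counts in every embryo of at least 1 condition, and 21 did not. Among the 21 were 5 of the 7 class II and IV deacetylases (HDAC4, HDAC7, HDAC9, HDAC10 and HDAC11), 5 demethylases (KDM1B, KDM4B, KDM6B, KDM7A and KDM8), the H3K4 methyltransferases SETD1A, SETD1B and SETD7, the H3K9 methyltransferase SUV39H2, and SETD4, SETD6, SETD9 and SUV420H2. PRMT1, which is the main arginine methyltransferase of most cells, had 0 to 3 counts per embryo, and whether its annotation or the counting of uniquely mapped reads set this value was not tested. PRMT8, a brain form, had 0 or 1 counts. HDAC11 had at most 6 counts, HDAC9 at most 7, HDAC4 and KDM6B at most 8 and SUV420H2 at most 3. At this depth a difference in these genes was not detectable. The last was RING1, the paralog of RNF2 in PRC1, with 0 to 34 counts per embryo. Its median was 3.48 CPM in vivo, 3.88 CPM in serum and 3.47 CPM in serum-free embryos, and the ranges overlapped.

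The question put to the 3 conditions was how in vitro production with or without serum changes gene expression relative to embryos that grew in the cow. A gene was called differentially expressed (DE) when edgeR's adjusted p was under 0.05 and the fold change at least 2. Between in vivo and serum embryos, 3 of 54 members tested were DE, which is 5.56% beside 13.8% of all 7339 genes tested. They were the demethylase KDM2B and the methyltransferase EZH1, both higher in vivo (2 members, beside 7.34% of all genes in that direction), and EZH2, which was higher in serum (beside 6.43%). With the adjusted p alone, at any fold change, 15 of the 54 members passed (27.8%, beside 28.3% of all genes), 7 of them higher in vivo and 8 higher in serum. Of the 54, 10 reached the count limit in only 1 of the groups, among them EZH1, KDM2B and SIRT3, which reached it in vivo, where they were higher. With no such limit (at least 1 count in any embryo), KDM2B passed (edgeR, adjusted p = 0.00795), and EZH1 and SIRT3 did not (edgeR, adjusted p = 0.0519 and 0.144). The median log2 fold change of the members, in vivo minus serum, was 0.02, and that of all genes was -0.01. Between in vivo and serum-free embryos, 1 of 51 members tested was DE, that is 1.96% beside 2.2% of all 7314 genes. It was BCOR, higher in vivo as were 0.588% of all genes, where 1.61% were higher in serum-free embryos. At any fold 3 members passed (5.88% beside 5.82%). Between serum-free and serum embryos, 1 of 52 was DE, that is 1.92% beside 8.91% of all 7181 genes. It was EZH2, higher in serum as were 3.55% of all genes, where 5.36% were higher in serum-free embryos. At any fold 7 members passed (13.5% beside 16.3%). The median of the members there, serum-free minus serum, was -0.17 with 37 of 52 members lower in serum-free embryos, and that of all genes was -0.02. The share of members called was thus at or below the share of all genes in each comparison. These comparisons share their embryos pairwise and are not independent of each other.

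**Figure D1:**
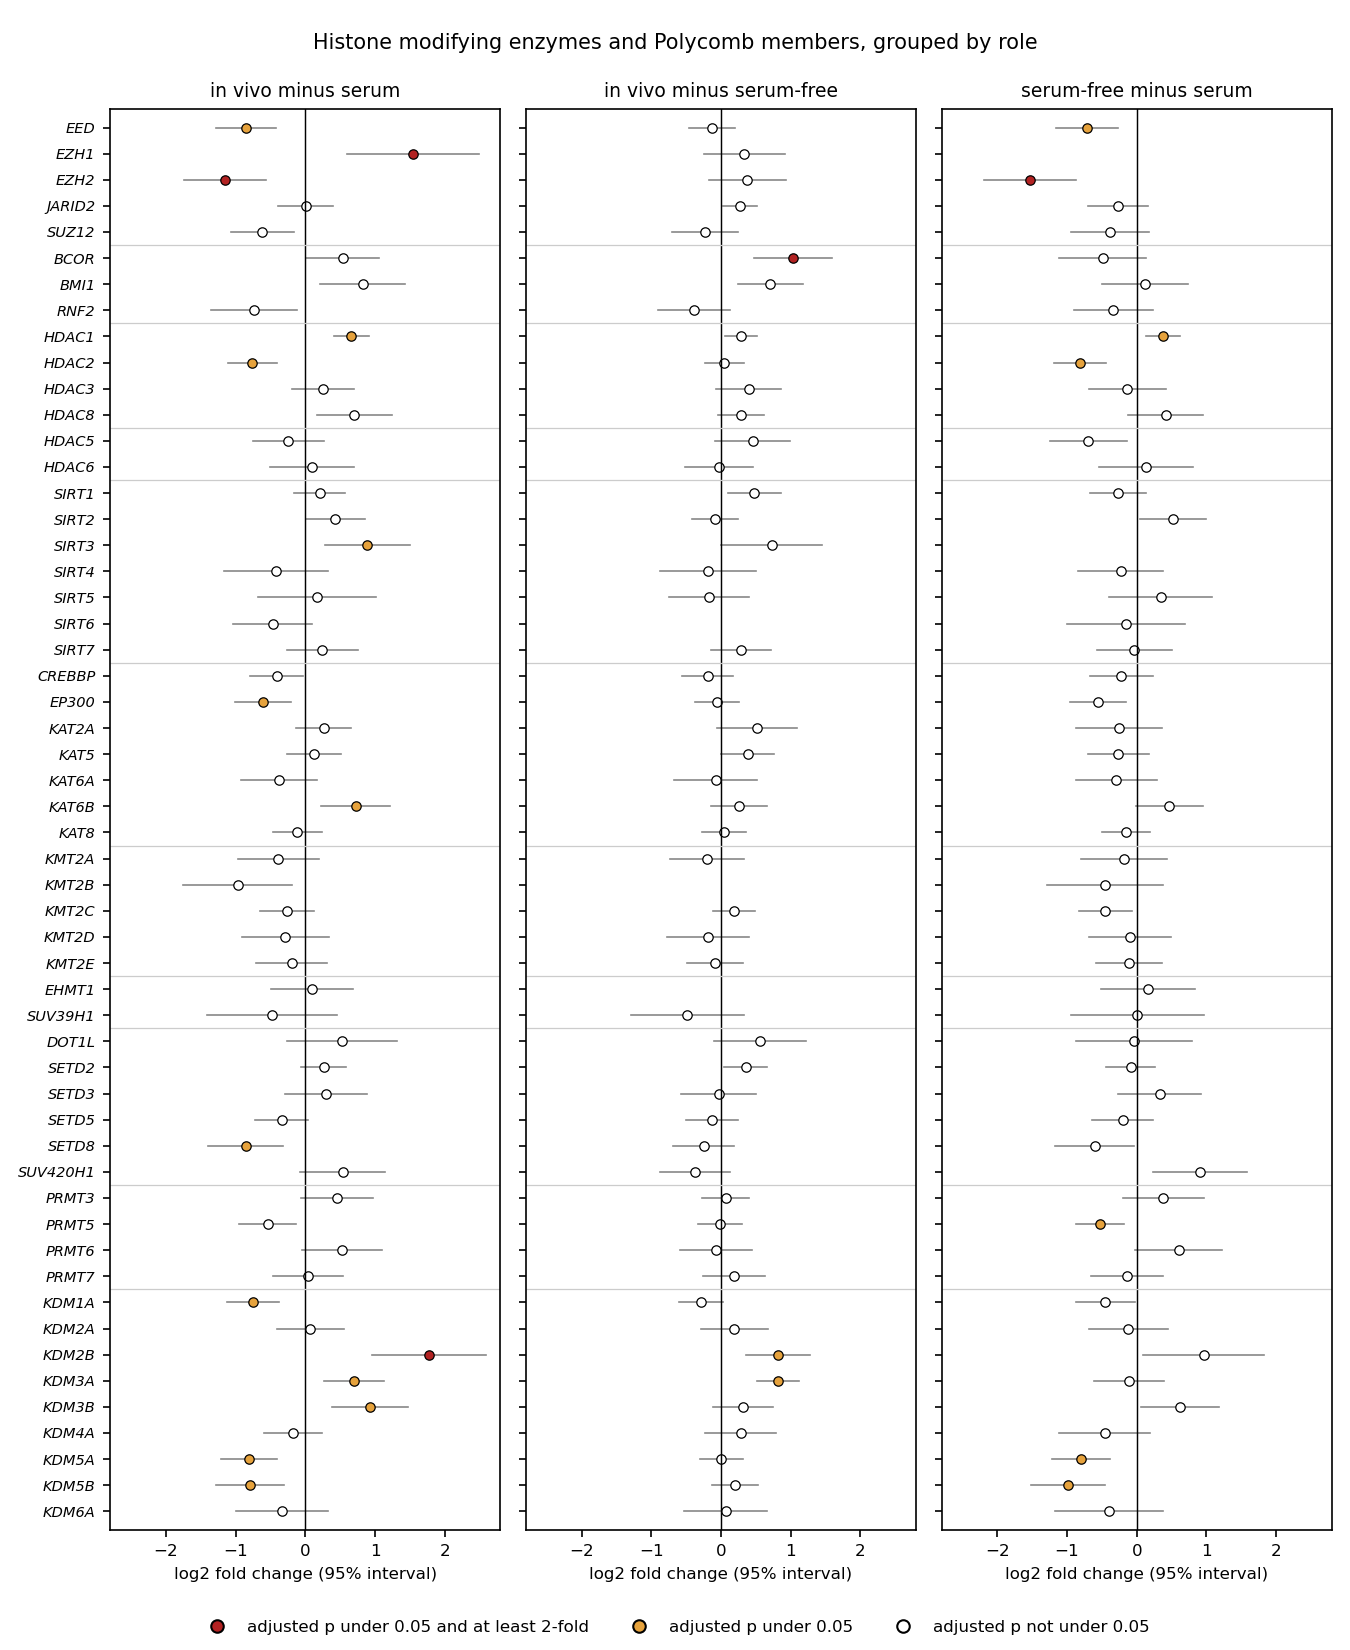
Log2 fold change of the 54 members tested in at least 1 comparison, grouped by role, with its approximate 95% interval; a missing point means that the gene was below the count limit in that comparison. EZH1 and KDM2B lie to the right and EZH2 to the left in the first panel, BCOR is the member past both limits in the second, and EZH2 in the third.

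The PRC2 genes did not move together. EZH2, the catalytic subunit of dividing cells, was higher in serum embryos, and EZH1, the alternative catalytic subunit found mostly in resting cells, was lower there. For EZH2, the in vivo embryos ran from 16.7 CPM through a median of 26.5 to 46.9 CPM, the serum embryos from 33.0 through 56.6 to 130 CPM, and the serum-free embryos from 6.42 through 22.8 to 32.1 CPM. All 8 serum embryos lay above all 8 serum-free embryos, and 5 of them above every in vivo embryo. It was the only member of 52 whose serum-free and serum ranges did not overlap (1.92%, beside 2.4% of all genes). The log2 fold change was -1.15 (SE 0.30) for in vivo minus serum (edgeR, adjusted p = 0.00799) and -1.53 (SE 0.34) for serum-free minus serum (edgeR, adjusted p = 0.00866). In vivo minus serum-free it was 0.38, with an approximate 95% interval of -0.17 to 0.93 (edgeR, adjusted p = 0.470). Without serum embryo B3, the highest, the change of in vivo minus serum was -0.93 (edgeR, adjusted p = 0.0205), which is under 2-fold.

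EZH1 separated the serum embryos among themselves. Its in vivo levels were 7.18 to 20.7 CPM with a median of 17.1, its serum levels 0.475 to 9.68 CPM with a median of 5.34, and its serum-free levels 3.62 to 20.4 CPM with a median of 12.0. Embryos B2, B3, B5 and B7 had 2, 5, 18 and 8 counts (0.475, 1.13, 2.05 and 2.46 CPM), while the other 4 serum embryos had 33 to 54 counts and lay between 8.23 and 9.68 CPM. In vivo, 7 of 8 embryos were above every serum embryo. The log2 fold change was 1.55 (SE 0.48), or 2.92-fold (edgeR, adjusted p = 0.0219), and EZH1 did not reach the count limit in serum-free against serum. With sums of 327, 1772, 527 and 462 CPM over the trophectoderm markers, B2, B5 and B7 were the 3 lowest of the serum embryos and B3 was not. Against serum-free embryos the in vivo change was 0.34, with an interval of -0.25 to 0.92.

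The remaining PRC2 genes were the scaffold subunits EED and SUZ12 and the accessory factor JARID2, which helps bring PRC2 to its targets. EED ran from 56.6 to 104 CPM in vivo (median 70.4), from 93.9 to 270 CPM in serum (median 113) and from 57.6 to 114 CPM in serum-free embryos (median 75.3). It was higher in serum than in vivo by a log2 fold change of -0.85 (SE 0.22; in vivo minus serum, edgeR, adjusted p = 0.00845), with 4 serum embryos above every in vivo embryo. The value of 270 CPM belonged to B2, and without B2 the change was -0.65 (edgeR, adjusted p = 0.00765). Serum-free minus serum it was -0.71 (SE 0.22, edgeR, adjusted p = 0.0364), and this call was lost without B2 (-0.50, edgeR, adjusted p = 0.0529) and when C1, C2, C7, C8 or C10 was left out, with adjusted p up to 0.0633.

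SUZ12 leaned the same way as EED but did not pass. It ran from 27.5 to 53.1 CPM in vivo, from 39.8 to 103 CPM in serum and from 15.6 to 80.2 CPM in serum-free embryos, with medians of 46.4, 57.7 and 48.0 CPM. Its log2 fold change of in vivo minus serum was -0.61, with an interval of -1.06 to -0.17 (edgeR, adjusted p = 0.0503). JARID2 had medians of 319, 254 and 257 CPM and a difference between in vivo and serum of 0.00 with an interval of -0.39 to 0.40. It was the second most even of the members among in vivo embryos, with 259 to 338 CPM, and ran from 188 to 511 CPM in serum.

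**Figure D2:**
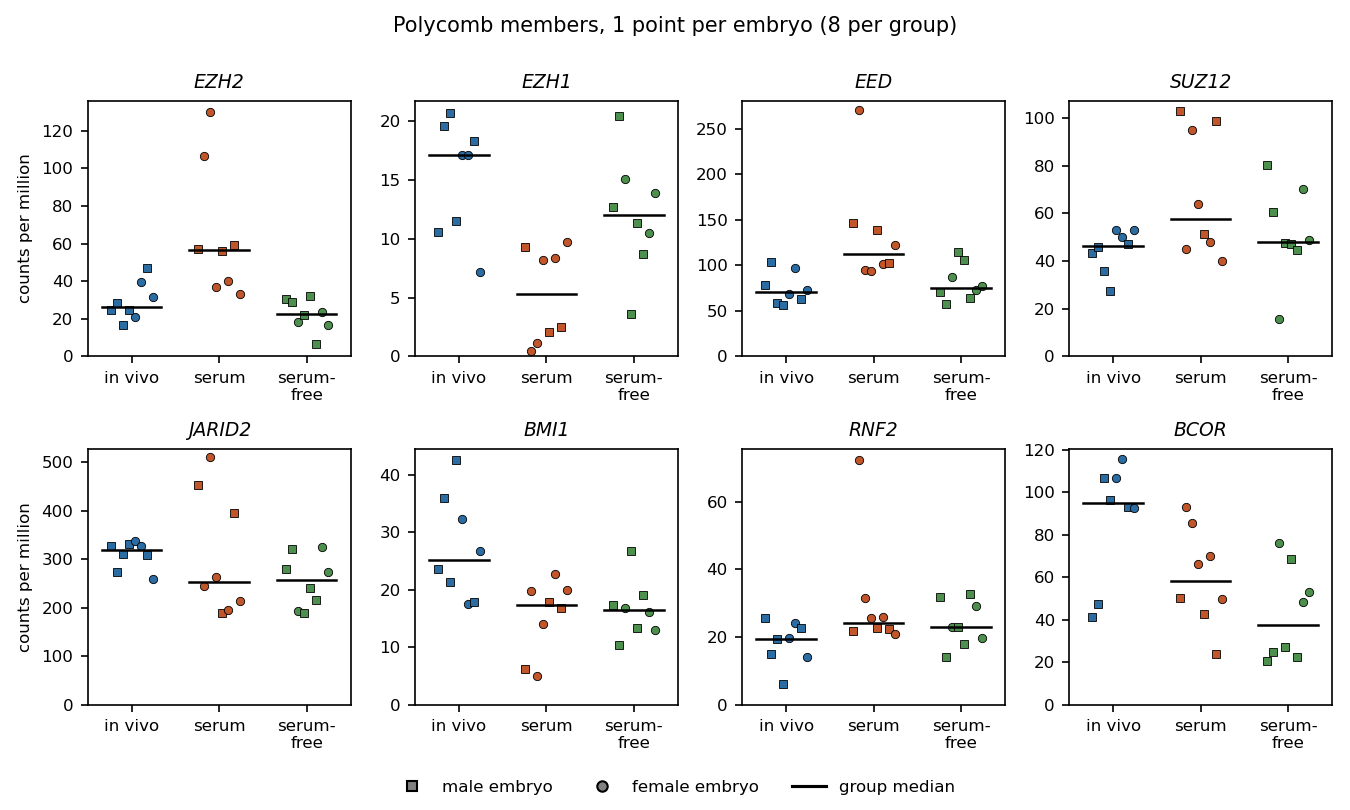
CPM of 8 Polycomb members in each embryo (squares male, circles female; the line is the median of 8 embryos). EZH2 in serum lies above all serum-free embryos, EZH1 falls into a low and a higher set of 4 within serum, and 1 serum embryo, B2, stands at the top for EED (270 CPM) and RNF2 (72.4 CPM).

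In PRC1 the member that passed was BCOR, an X-linked corepressor and a subunit of a variant PRC1. Its in vivo levels were 41.3 to 116 CPM with a median of 94.8, its serum levels 23.6 to 93.1 CPM with a median of 58.3, and its serum-free levels 20.6 to 76.2 CPM with a median of 37.7. In vivo, 6 of 8 embryos were above every serum-free embryo, and the male embryos A1 and A2, at 41.3 and 47.5 CPM, were within the serum-free range. The log2 fold change of in vivo minus serum-free was 1.03 (SE 0.28), or 2.04-fold (edgeR, adjusted p = 0.0362), close to both limits. The call was kept in 6 of 16 fits that left out 1 embryo and lost without A3, A4, A6, A7, A8, A9, C1, C2, C4 or C7, with adjusted p up to 0.0719. Both groups held 5 male and 3 female embryos. With female embryos alone the change was 0.83 (SE 0.24), with male embryos alone 1.21 (SE 0.36), and neither passed (edgeR, adjusted p = 0.181 and 0.0993). Against serum it was 0.54, with an interval of 0.01 to 1.06 (edgeR, unadjusted p = 0.0587, adjusted p = 0.136). Serum-free minus serum it was -0.49, with an interval of -1.12 to 0.14 (edgeR, adjusted p = 0.294). The order of the medians was in vivo, serum, serum-free, and neither pair of neighbours in that order passed the test. Serum held 3 male and 5 female embryos, and BCOR had higher estimates in females (log2 fold change of male minus female -0.74). The comparisons with serum held no term for sex, so that culture and sex are partly mixed in them.

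BMI1, which stabilizes the PRC1 ubiquitin ligase, and RNF2, its main catalytic subunit in the embryo, did not pass in any culture comparison. BMI1 had medians of 25.2, 17.4 and 16.4 CPM in vivo, in serum and in serum-free embryos, and 5 of 8 in vivo embryos lay above all serum embryos. The log2 fold changes were 0.83 for in vivo minus serum (edgeR, adjusted p = 0.0530) and 0.71 for in vivo minus serum-free (edgeR, adjusted p = 0.0837). RNF2 had medians of 19.5, 24.2 and 22.9 CPM, and in vivo minus serum gave -0.73 with an interval of -1.35 to -0.12 (edgeR, adjusted p = 0.0868). Its highest serum embryo was B2 with 72.4 CPM, followed by 31.4 CPM.

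The demethylases held the member with the largest change from in vivo to serum, KDM2B, which reached the count limit only in vivo, where it was higher. They were also the largest role, with 14 members listed, and held the most that passed at any fold, 6 of 9 tested (beside 28.3% of all genes). KDM2B removes methyl groups from lysine 36 of histone H3 and is also the CpG-binding subunit of the BCOR-containing PRC1. It ran from 21.8 to 45.7 CPM in vivo with a median of 28.3, from 0.712 to 17.2 CPM in serum with a median of 9.52, and from 7.95 to 25.5 CPM in serum-free embryos with a median of 17.7. No serum embryo reached the lowest in vivo embryo. Groups without overlap in this comparison were found for 2 of 54 members, KDM2B and HDAC2, which is 3.7% beside 7.11% of all genes tested. The log2 fold change was 1.77 (SE 0.42), or 3.42-fold (edgeR, adjusted p = 0.00449), and between 1.57 and 1.97 when embryos were left out in turn. B2 and B7, with 3 and 8 counts (0.712 and 2.46 CPM), were the lowest. Against serum-free embryos, 7 of 8 in vivo embryos lay above the whole serum-free range, and the change was 0.82 (SE 0.24, edgeR, adjusted p = 0.0454). That call was kept in 4 of 16 fits that left out 1 embryo (those without A9, C7, C8 or C10), with adjusted p up to 0.0965. Serum-free minus serum gave 0.96, with an interval of 0.10 to 1.82 (edgeR, adjusted p = 0.135), and 4 serum-free embryos were above every serum embryo.

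KDM3A and KDM3B, which remove methyl groups from lysine 9 of histone H3, were also higher in vivo than in serum. KDM3A ran from 132 to 188 CPM in vivo, from 35.5 to 155 CPM in serum and from 63.8 to 150 CPM in serum-free embryos, with medians of 161, 104 and 80.3 CPM. Its log2 fold change was 0.70 (SE 0.22) from serum (edgeR, adjusted p = 0.0241), lost without A4 (edgeR, adjusted p = 0.0533). It was 0.82 (SE 0.15) from serum-free embryos (edgeR, adjusted p = 0.00350), and this call was kept in 16 of 16 fits that left out 1 embryo. For KDM3B, with medians of 30.5 CPM in vivo, 19.2 CPM in serum and 28.0 CPM in serum-free embryos, the change was 0.93 (SE 0.28, edgeR, adjusted p = 0.0189), lost without A7 (edgeR, adjusted p = 0.0540).

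In the opposite direction were KDM1A, KDM5A and KDM5B, all demethylases of lysine 4 of histone H3. KDM1A ran from 68.1 to 99.1 CPM in vivo and from 75.3 to 222 CPM in serum (medians 77.7 and 122). KDM5A ran from 61.5 to 114 CPM in vivo and from 81.9 to 236 CPM in serum (medians 82.4 and 135), with 7 serum embryos above every in vivo embryo. KDM5B ran from 60.7 to 92.6 CPM in vivo and from 78.2 to 302 CPM in serum (medians 79.8 and 104). All 3 were higher in serum, with overlapping ranges. In vivo minus serum, the log2 fold changes were -0.75 for KDM1A, -0.80 for KDM5A and -0.79 for KDM5B (SE 0.19, 0.21 and 0.25, edgeR, adjusted p = 0.00759, 0.00773 and 0.0224). The 302 CPM of KDM5B was B2, and without it the change was -0.53 (edgeR, adjusted p = 0.0289). Serum-free minus serum, KDM5A gave -0.80 and KDM5B -0.99 (SE 0.21 and 0.27, edgeR, adjusted p = 0.0192 and 0.0222), and KDM1A gave -0.45 and did not pass (edgeR, adjusted p = 0.147). KDM2A, KDM4A and KDM6A did not pass in any of the 3 comparisons.

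Of the 4 class I deacetylases, HDAC1 and HDAC2 passed at any fold against serum, in opposite directions (28.3% of all genes passed). The pair are close paralogs that act in the same corepressor complexes. HDAC1 ran from 816 to 1438 CPM in vivo with a median of 1061, from 609 to 859 CPM in serum with a median of 700, and from 728 to 1042 CPM in serum-free embryos with a median of 950. In vivo, 7 of 8 embryos were above every serum embryo, and the log2 fold change was 0.66 (SE 0.13, edgeR, adjusted p = 0.00122), the smallest adjusted p of any member in this comparison. HDAC2 ran from 96.3 to 162 CPM in vivo with a median of 130, from 163 to 349 CPM in serum with a median of 196, and from 93.4 to 174 CPM in serum-free embryos with a median of 122. All serum embryos were above all in vivo embryos, although the closest pair was 162 and 163 CPM. The change was -0.76 (SE 0.18) for in vivo minus serum (edgeR, adjusted p = 0.00471) and -0.81 (SE 0.19) for serum-free minus serum (edgeR, adjusted p = 0.0110). Serum-free minus serum, HDAC1 gave 0.37 (SE 0.13, edgeR, adjusted p = 0.0484), kept in 3 of 16 fits that left out 1 embryo (those without B4, B6 or C3), with adjusted p up to 0.107. In vivo minus serum-free, HDAC2 gave 0.05, with an interval of -0.23 to 0.32, and HDAC1 gave 0.29, with an interval of 0.06 to 0.52 (edgeR, adjusted p = 0.146). HDAC3 and the X-linked HDAC8 did not pass in the culture comparisons, HDAC8 with medians of 326, 207 and 309 CPM in vivo, in serum and in serum-free embryos and 0.70 for in vivo minus serum (edgeR, adjusted p = 0.0614), nor did the class II members tested, HDAC5 and the tubulin deacetylase HDAC6.

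**Figure D3:**
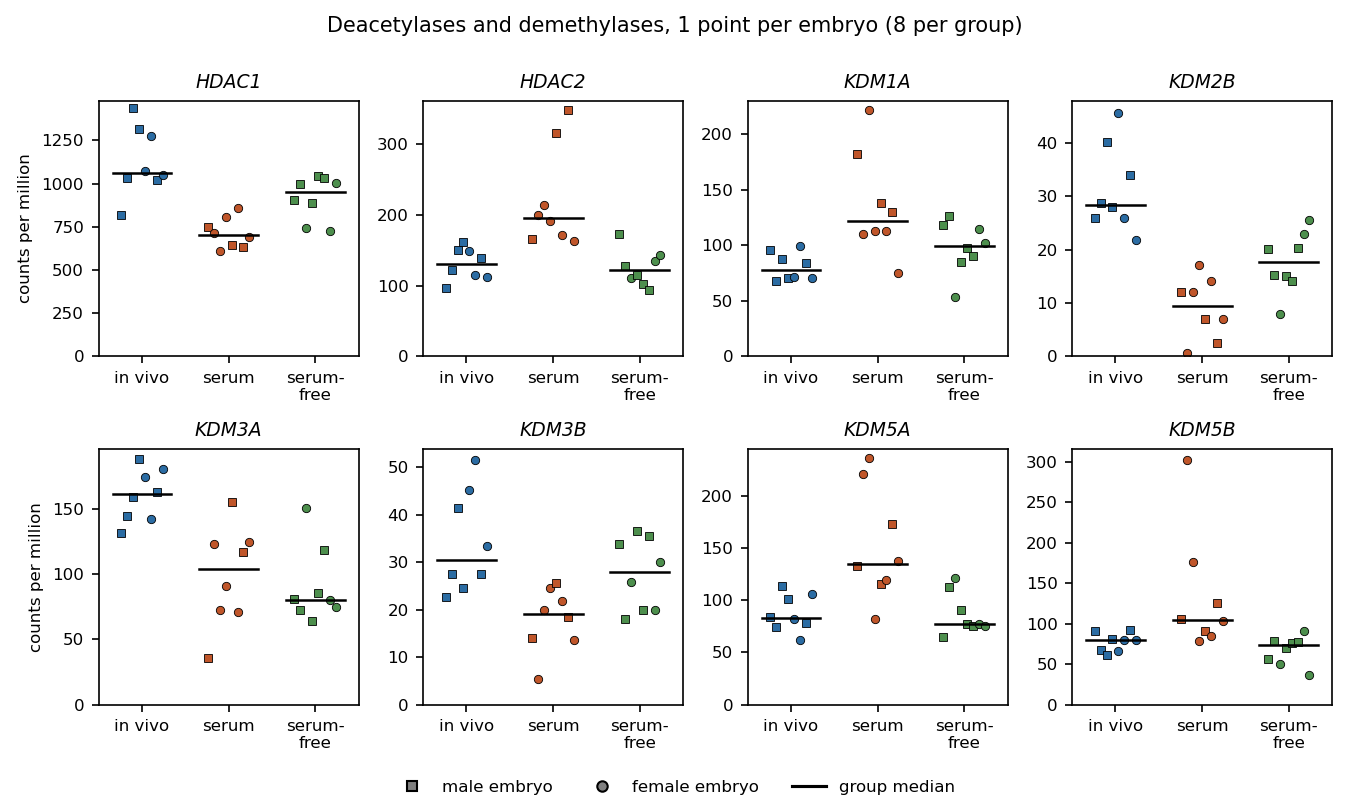
CPM of 2 class I deacetylases and 6 demethylases in each embryo (squares male, circles female; the line is the median of 8 embryos). HDAC1, KDM2B, KDM3A and KDM3B stand lower in serum than in vivo, and HDAC2, KDM1A, KDM5A and KDM5B higher, with 302 CPM of KDM5B in embryo B2.

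Of 7 sirtuins, which are deacetylases that use NAD, and 7 acetyltransferases, all 14 were tested against serum. At any fold 3 of them passed, beside 28.3% of all genes. The mitochondrial SIRT3 was higher in vivo, with 5.86 to 14.3 CPM against 2.82 to 10.04 CPM in serum and a log2 fold change of 0.89 (SE 0.31, edgeR, adjusted p = 0.0393). SIRT3 reached the count limit only in vivo, with 10, 13 and 13 counts in serum embryos B1, B2 and B7, and did not pass without that limit. KAT6B, which acetylates histone H3, was higher in vivo as well, with 36.1 to 86.2 CPM against 20.0 to 64.8 CPM and a change of 0.72 (SE 0.25, edgeR, adjusted p = 0.0399). EP300, a coactivator of enhancers, was higher in serum, with 100 to 253 CPM against 72.3 to 160 CPM in vivo and a change of -0.61 (SE 0.21, edgeR, adjusted p = 0.0323). The ranges overlapped for all 3, and leaving out 1 embryo kept the SIRT3 and KAT6B calls in 5 of 16 fits each and the EP300 call in 11 of 16. SIRT3 was kept without A4, B3, B4, B5 or B8, KAT6B without A3, A9, B1, B2 or B3, and EP300 was lost without A2, A3, A9, B1 or B3, with adjusted p up to 0.0907, 0.0963 and 0.0656. CREBBP, the paralog of EP300, gave -0.41 with an interval of -0.79 to -0.03 (edgeR, adjusted p = 0.118). In serum-free embryos SIRT3 ran from 0.836 to 13.4 CPM, KAT6B from 38.7 to 76.5 CPM and EP300 from 95.5 to 181 CPM. No sirtuin or acetyltransferase tested passed in the other culture comparisons, where SIRT6 (in vivo against serum-free) and SIRT3 (serum-free against serum) were below the count limit.

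Of the methyltransferases outside PRC2, SETD8 passed at any fold against serum, where 28.3% of all genes did. PRMT5 passed in serum-free against serum, where 16.3% of all genes did. The 5 tested members grouped as H3K4 methyltransferases were KMT2A to KMT2E, placed there by family name. None of the 5 passed against serum, although all had a negative log2 fold change (in vivo minus serum, median -0.29). The furthest was KMT2B, with 2.70 to 12.1 CPM in vivo and 5.01 to 26.6 CPM in serum and a change of -0.97 (SE 0.40, edgeR, adjusted p = 0.0743). It reached the count limit only in serum. SETD8, which places the first methyl group on lysine 20 of histone H4, was higher in serum, with 26.8 to 92.5 CPM against 15.5 to 34.3 CPM in vivo and 13.1 to 37.9 CPM in serum-free embryos. Its change was -0.86 (SE 0.27, edgeR, adjusted p = 0.0248), lost without B3 (-0.62, edgeR, adjusted p = 0.0653). SUV420H1, which adds further methyl groups to the same lysine, gave 0.54 (edgeR, adjusted p = 0.195) and serum-free minus serum 0.91 (edgeR, adjusted p = 0.0749). Among arginine methyltransferases, PRMT5, which methylates arginine symmetrically, ran from 136 to 362 CPM in vivo, from 279 to 604 CPM in serum and from 196 to 310 CPM in serum-free embryos. Serum-free minus serum it gave -0.53 (SE 0.18, edgeR, adjusted p = 0.0484), kept in 6 of 16 fits that left out 1 embryo (those without B1, B3, B6, B7, B8 or C3), with adjusted p up to 0.0840. In vivo minus serum it gave -0.54 and did not pass (edgeR, adjusted p = 0.0601). The H3K9 methyltransferase SUV39H1, with medians of 14.3, 15.3 and 27.1 CPM in vivo, in serum and in serum-free embryos, the H3K36 methyltransferase SETD2 and the H3K79 methyltransferase DOT1L did not pass in any culture comparison. The H3K9 methyltransferase EHMT1 did not pass in the comparisons with serum and was below the count limit in the other.

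The subunits and further enzymes that work with these members were followed as 7 lists with 122 genes, of which 113 were in the count table. Against serum, 73 were tested and 5 were DE, which is 6.85% beside 13.8% of all genes. At any fold 21 passed (28.8% beside 28.3%), 5 higher in vivo and 16 higher in serum, beside 13.4% and 14.8% of all genes. Higher in serum were PCGF1, the Polycomb ring finger protein of the BCOR and KDM2B complex (log2 fold change of in vivo minus serum -1.06, SE 0.27), MSL3 of an H4K16 acetyltransferase complex (-1.21, SE 0.24), the methyltransferase SETDB2 (-1.42, SE 0.38) and the ubiquitin-conjugating enzyme UBE2A (-1.07, SE 0.27, edgeR, adjusted p = 0.00727, 0.00137, 0.0106 and 0.00712). GPS2, a subunit of an HDAC3 corepressor, was higher in vivo (1.32, SE 0.42, edgeR, adjusted p = 0.0258). PCGF1 and KDM2B, subunits of 1 complex, thus passed in opposite directions. In serum-free against serum, 4 of 72 were DE (5.56% beside 8.91% of all genes) and 10 passed at any fold (13.9% beside 16.3%), 2 higher and 8 lower in serum-free embryos. PCGF1 (-1.09), MSL3 (-1.28) and SETDB2 (-1.52) were lower and TBL1X, another subunit of the HDAC3 corepressor, was higher (1.67, edgeR, adjusted p = 0.0151, 0.0263, 0.00951 and 0.0316). In the comparison of in vivo with serum-free embryos none of the 74 tested was DE or passed at any fold, beside 2.2% and 5.82% of all genes. The culture fits had no term for sex, and 5 of 8 serum embryos were female against 3 of 8 in each other group. Between the sexes, 3 of 69 list genes passed at any fold (4.35% beside 2.63% of all genes), all higher in females. X linkage was marked for the members only, so X-linked genes of the lists, including any among those called, are not set apart here. Sex as a covariate was among the alternative fits, but the list genes were not followed in it. The part of sex in their calls against serum is therefore not given here.

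Male and female embryos were compared across all 24 embryos with culture condition as a covariate. Of 48 members tested 1 was DE, which is 2.08% beside 0.946% of all 6659 genes (0.796% in the direction of higher levels in females), and 3 passed at any fold (6.25% beside 2.63%). The 5 X-linked members, KDM6A, HDAC6, BCOR, HDAC8 and SUV39H1, all had higher estimates in females, with a median log2 fold change of male minus female of -0.74. Of the 43 other members tested, 20 had higher estimates in females and 23 in males, with a median of 0.01. The culture comparisons held no term for sex, and 5 of 8 serum embryos were female against 3 of 8 in each other group. Values of the X-linked members against serum therefore mix culture with sex.

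KDM6A, an H3K27 demethylase that is known in other mammals to escape X inactivation, separated the sexes. Its 13 male embryos ran from 13.0 through a median of 22.6 to 30.4 CPM and its 11 female embryos from 30.6 through 50.1 to 110 CPM, so that every female was above every male. Such separation was found for 1 of 48 members (2.08%, beside 0.375% of all genes). Means in males and females were 26.2 and 44.7 CPM in vivo, 20.5 and 54.2 CPM in serum, and 19.8 and 50.9 CPM in serum-free embryos. The log2 fold change was -1.19 (SE 0.20, edgeR, adjusted p = 0.000519), and it was -1.04 (edgeR, adjusted p = 0.000203) without B3, the female at 110 CPM. KDM6A has a Y-linked relative, only reads with 1 mapping position were counted, and the part of reads shared by both copies was not tested.

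HDAC6 was the other X-linked member that passed at any fold. Males ran from 30.7 to 124 CPM with a mean of 88.6 and females from 51.3 to 194 CPM with a mean of 155, and 9 of 11 females were above every male. The log2 fold change was -0.88 (SE 0.20, edgeR, adjusted p = 0.0113), and within in vivo embryos alone it was -0.81 (SE 0.15, edgeR, adjusted p = 0.0101). BCOR gave -0.74 (SE 0.21, edgeR, adjusted p = 0.0531), HDAC8 gave -0.53 (SE 0.19, edgeR, adjusted p = 0.186) and SUV39H1 gave -0.45 (SE 0.39, edgeR, adjusted p = 0.721). Their ranges overlapped, and these values did not pass. PRMT7, an autosomal arginine methyltransferase that adds single methyl groups, was higher in males, with 116 to 289 CPM against 62.9 to 180 CPM in females, and 9 of 13 males were above every female. Its change was 0.70 (SE 0.17, edgeR, adjusted p = 0.0199), lost without B5 (edgeR, adjusted p = 0.0524).

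**Figure D4:**
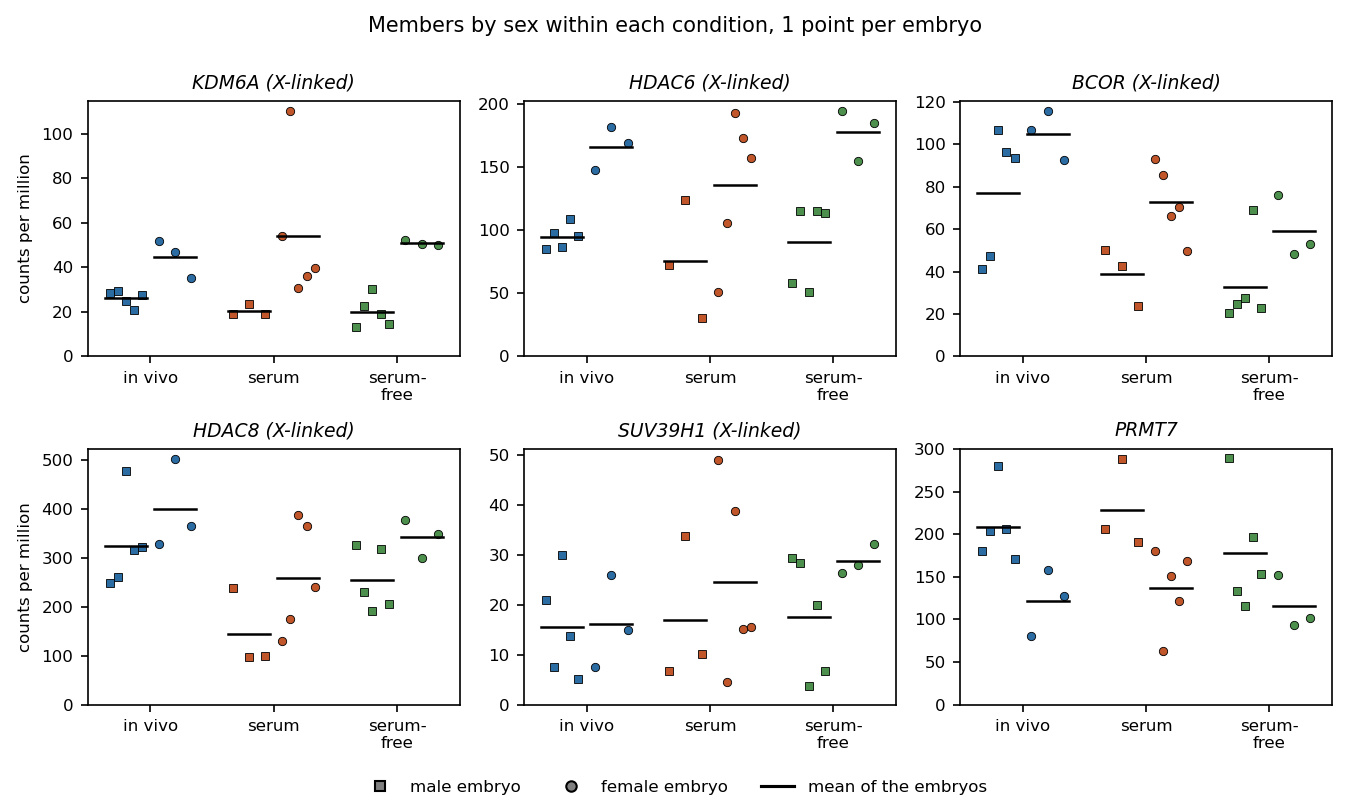
CPM of the 5 X-linked members and PRMT7 in male (squares) and female (circles) embryos of each condition; lines are means. KDM6A is higher in every female than in every male, and PRMT7 has its lowest values in females.

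A difference between the sexes in their response to culture was tested as an interaction. In the edgeR fit of in vivo and serum embryos, 0 of 8446 genes and 0 of 59 members passed, while 436 genes (5.16%) and 2 members, KMT2D and SUZ12, had an unadjusted p under 0.05. In that of in vivo and serum-free embryos, 0 of 8425 genes and 0 of 58 members passed, while 555 genes (6.59%) and 2 members, PRMT5 and SUV39H2, did at the unadjusted level. DESeq2 called 14 and 5 genes in the respective fits and 0 members in either. The smallest adjusted p of any member was 0.942 against serum and 0.428 against serum-free embryos in the edgeR fits. With 3 embryos in the smaller arms this does not show that the sexes responded alike. Fits within a sex differed in their calls against serum, for members and for all genes. The 5 in vivo and 3 serum male embryos gave 6 DE members of 57 tested (EZH2, HDAC2, HDAC8, KDM2B, SETD1A and SUZ12), which is 10.5% beside 13.3% of 7762 genes, and SETD1A was tested there because it reached the count limit in the 3 serum males, where it was higher. The 3 in vivo and 5 serum female embryos gave 0 of 57, beside 0.418% of 8138 genes.

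Like genes in general, the members varied more from embryo to embryo in serum. The standard deviation of log2(CPM + 1) between the 8 embryos of a group had a median over the 54 members of 0.36 in vivo, 0.56 in serum and 0.46 in serum-free embryos, beside 0.37, 0.61 and 0.46 over all 7557 genes. It was larger in serum than in vivo for 43 of 54 members (79.6%, beside 82.7% of all genes) and larger in serum than in serum-free for 36 (66.7%, beside 71.4%). The widest serum spreads were those of KDM2B (1.17), EZH1 (1.15), SUV39H1 (1.15) and SIRT5 (1.08), against 0.35, 0.50, 0.86 and 0.82 in vivo. KDM2B, EZH1 and SIRT5 had as few as 3, 2 and 7 counts, in serum embryo B2, so that their spread rests in part on values near the floor. HDAC1 had the narrowest, with 0.17 in serum, 0.26 in vivo and 0.21 in serum-free embryos. SIRT6, a sirtuin of DNA repair, was among the members that went the other way. Its values were 0.29 in serum, 0.57 in vivo and 1.26 in serum-free embryos, where it ran from 0.557 CPM in C4 to 16.0 CPM in C2.

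**Figure D5:**
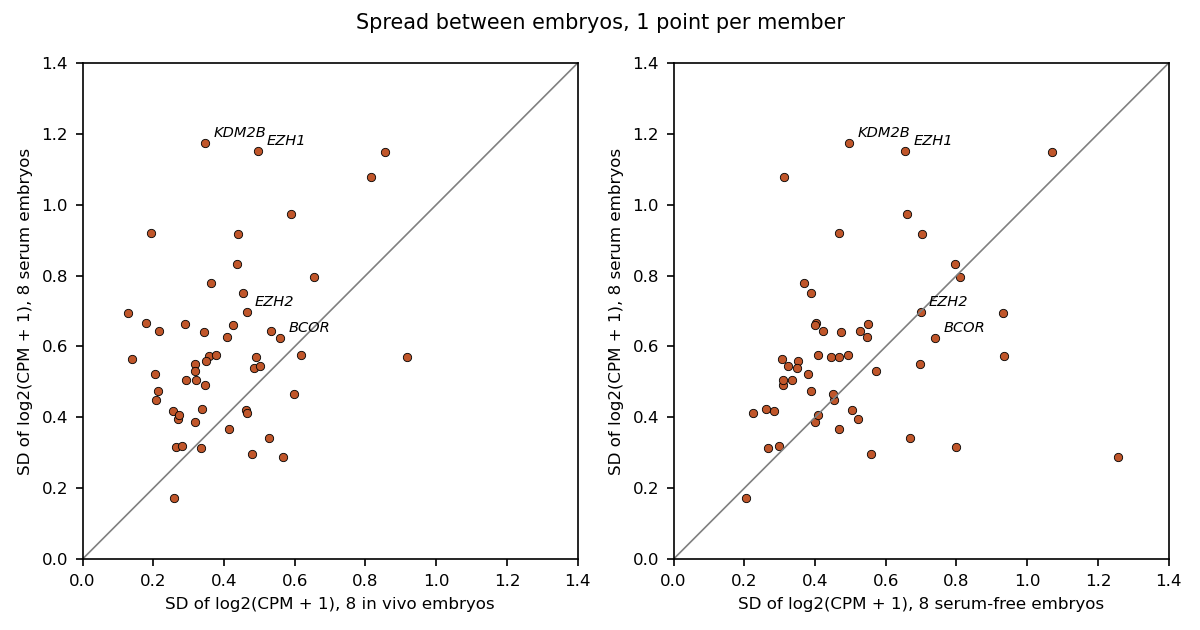
Standard deviation of log2(CPM + 1) between 8 serum embryos against that between 8 in vivo (left) or 8 serum-free (right) embryos, 1 point for each of 54 members; the diagonal marks equal spread. Of the 54 points, 43 lie above the diagonal on the left and 36 on the right, with KDM2B, EZH1 and SUV39H1 at the top.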

How the data were processed

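Single blastocysts were sequenced as paired-end cDNA libraries made without strand information. After quality trimming, the authors aligned reads to the cattle assembly UMD 3.1 in CLC Genomics Workbench and deposited raw counts of uniquely mapped exon fragments per gene and embryo, which were used as deposited. Unique mapping can lower counts of genes with near-identical copies, and reads of overlapping antisense genes cannot be told apart. All 24 value columns were matched to an embryo, and 0 were left unused.

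In R 4.3.3, edgeR 4.0.16 (TMM normalization, quasi-likelihood test) was fitted over all genes with at least 15 counts in every embryo of at least 1 group compared, using only the groups compared. Adjusted p-values (Benjamini-Hochberg) cover all genes tested, with limits of 0.05 and 2-fold. Sex was tested with condition as a covariate, and interactions in models of 4 groups. Standard errors and 95% intervals are approximate, from the estimate and its F statistic. The intervals use normal quantiles and are therefore somewhat too narrow. CPM are counts per 1000000 after TMM scaling and, without gene lengths, were not compared between genes. Alternatives were edgeR's exact test, DESeq2 1.42.0, its size factors, other count limits, 1 fit over all embryos, sex as a covariate, a replicate block and leaving out each embryo. The script was tested on simulated data.

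The members and the lists of partners and markers were chosen with earlier results of these data known. Values per group are given for BCOR, the PRC1 and PRC2 members, every member that passed, and X-linked members, in the text or the plots by embryo, and other members by counts. Members that did not pass and embryos that stand apart were named after their values were seen.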

Additional observations from a re-analysis of the deposited data

Results flagged for a closer look

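For 27 members, each condition was searched for an embryo whose highest or lowest CPM lay apart from the other 7 by Dixon's 95% criterion, which chance meets in about 1 of 20 groups. Of the 81 searches 5 found one, all of them a highest value. In serum, embryo B2 had 270 CPM of EED (next 146 CPM), 302 CPM of KDM5B (next 175 CPM) and 72.4 CPM of RNF2 (next 31.4 CPM). B2 also had the lowest trophectoderm sum of all embryos, 327 CPM, and the part of this in its values was not tested. Serum embryo B3, a female, had 110 CPM of KDM6A (next 54.1 CPM). In vivo embryo A1 had 9.25 CPM of RING1 (next 4.38 CPM), a gene below the count limit.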

How the results depend on the processing

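Over the 28 results on single members that passed at any fold, no change reversed its sign under any alternative. Each refit used all or part of the same embryos, so it is no independent test of the direction. The adjusted p stayed under 0.05 in 212 of 299 alternatives and in 390 of 472 fits that left out 1 embryo. For in vivo against serum, 3 DE members became 15 with no limit on the fold change, 1 of 44 (2.27% beside 9.47% of all genes) where all 16 embryos had to reach 15 counts (EZH1, KDM2B and SIRT3 then fell below the limit), 6 with male (10.5% beside 13.3%) and 0 with female embryos (beside 0.418%), and 3 to 5 when embryos were left out in turn, 5 without B8 (9.26% beside 15.7%). For in vivo against serum-free, 1 became 3 with no limit on the fold change, 0 in 1 fit over all 24 embryos (72 genes called), 0 with male (beside 0.966% of all genes) and 0 with female embryos (beside 0.304%), and 0 to 1 with embryos left out. Between serum-free and serum embryos, 1 became 7 with no limit on the fold change, 2 in 1 fit over all embryos (EZH2 and KDM5B, with 792 genes called), 0 with female embryos (0 of all genes), and 1 to 3 with embryos left out, 3 without B6 (5.77% beside 9.64%). Between the sexes, 1 became 3 with no limit on the fold change, 0 within in vivo, 0 within serum and 0 within serum-free embryos (beside 0.653%, 0.173% and 0.139% of all genes), and 1 to 2 with embryos left out, 2 without B5 (4.17% beside 0.938%). Both interactions gave 0 to 0 members. Fits within 1 sex or condition hold fewer embryos; for the other changes the cause was not tested. The edgeR exact test, DESeq2 and its size factors gave the main count in each culture and sex comparison. Replicate numbers did not pair embryos: deviations of same-numbered embryos correlated at -0.123 to 0.083. A replicate block over the 7 shared numbers gave 2, 1 and 0 DE members in the 3 culture comparisons (703, 82 and 29 genes), and the same embryos with no block, a fit chosen after seeing the data, gave 4, 0 and 1 (922, 136 and 432 genes).
Genes at a few counts per embryo, such as HDAC11, carry no information on differences at these depths, and each count rests on 8 embryos a group from few cows and cultures.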

Other observations

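Within an embryo, EZH2 and EZH1 were counted against the same library, so that the ratio of their counts can be compared between embryos, though not read as a ratio of molecules because gene lengths were not used. The ratio was 0.808 to 4.37 in vivo (median 2.24), 3.41 to 224 in serum (median 15.1) and 0.735 to 6.00 in serum-free embryos (median 1.84). It was over 10 in 4 serum embryos, B2 (224), B3 (115), B5 (27.3) and B7 (24), and in 0 of the 16 in vivo and serum-free embryos. The remaining serum embryos had 3.41 to 6.15. The 4 high ratios rest on EZH1 counts of 2, 5, 18 and 8 in the same order, and these are the embryos already described as low in EZH1. The ratio was chosen after the values of both genes were seen and is given with no test.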
